A study of Mus musculus with 11 samples.

Results

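The genes described here encode the enzymes that build sterols and fatty acids from acetyl units, together with the proteins that set the output of both pathways. They are 33 mouse genes given by symbol, and a gene was taken where the platform annotation paired that symbol with a row of the deposited value table. This gave 32 of the 33 genes among 23185 genes with 1 symbol, and Acat2 is named only. By step, 6 measured genes belong to the mevalonate steps, 11 to the sterol steps, 9 to fatty acid synthesis and 6 to sterol regulatory element-binding protein (SREBP) control.

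The study followed liver cells that carry yellow fluorescent protein (YFP), which marks descendants of the biliary epithelium, the lining of the bile ducts, and asked what these cells give rise to after injury. Whole-transcript Affymetrix arrays were run on 11 samples of cells sorted from mouse liver. YFP+ UTR (2 arrays) is YFP-positive cells of untreated mice. YFP- (3 arrays) is YFP-negative cells, taken here as from untreated mice although their titles name no treatment. YFP+ CDE (3 arrays) is YFP-positive cells of mice given CDE, which in liver injury work stands for a choline-deficient, ethionine-supplemented diet. YFP+ DDC (3 arrays) is YFP-positive cells of mice given the DDC diet, which contains a dihydrocollidine and is used as a model of bile duct injury. The protocol text gives 5 weeks and 4 mice for DDC, and the same text is attached to every sample. The sources used here do not give the length of CDE feeding, the promoter and Cre that set the label, the strain or the age. Per the labels' protocols, livers were digested enzymatically, hepatocytes were spun out, and living cells of the remaining pellet were sorted on YFP against a gate set on wild type mice. Whether arrays of 1 group stem from different animals is not stated in the labels, so each p-value speaks only of the spread among these samples, part or all of which may be technical.

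Cholesterol is made from acetyl-CoA by way of mevalonate, squalene and lanosterol, and fatty acids are made from the same acetyl-CoA by way of malonyl-CoA, followed by elongation and desaturation. SREBP transcription factors sit in the endoplasmic reticulum membrane with the escort protein Scap. When sterols are scarce they travel to the Golgi, are cut and enter the nucleus, where they act on most genes of both pathways, and when sterols are plentiful the Insig proteins hold them back. In the liver these pathways are best known from hepatocytes, which export lipid in lipoproteins and bile, whereas bile duct cells line the ducts that carry bile.

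All values below are on the log2 scale of the deposited table, so a difference of 1 is a doubling. Levels were not compared between genes, because each gene has its own probes. Array medians ran from 5.63 to 5.76, and all 32 genes had a mean over the 11 arrays of at least 5, so none was lost to a filter on low values. The YFP+ arrays resembled each other (correlation across genes 0.980 to 0.991) more than the YFP- arrays did (0.888 to 0.925). The 4 measured of 6 biliary markers had a mean of 10.24 to 10.63 on the YFP+ arrays, and 8.13, 5.27 and 4.89 on YFP- replicates 1, 2 and 3. Krt19, a bile duct keratin, read 10.11 to 10.64 on the YFP+ arrays and 8.28, 4.64 and 4.65 on the YFP- arrays. The YFP- arrays carried endothelial and leukocyte markers: the 5 endothelial markers averaged 10.42 to 12.00 there and 4.97 to 6.04 on the YFP+ arrays. Of these, Pecam1 read 10.11 to 11.85 on YFP- arrays and 4.79 to 5.21 on YFP+ arrays. The 5 macrophage markers averaged 8.56, 8.64 and 11.38 on YFP- replicates 1, 2 and 3 and 6.16 to 7.20 on YFP+ arrays. The B cell gene Cd79a read 10.11 on YFP- replicate 2 and at most 4.24 elsewhere. The 8 hepatocyte markers averaged 7.47, 8.68 and 9.34 on YFP- replicates 1, 2 and 3 and 7.64 to 9.16 on the YFP+ arrays, and albumin (Alb) read 10.61, 11.76 and 12.44 on the YFP- arrays and 11.70 to 12.58 on the YFP+ arrays. The 3 YFP- arrays thus differed from each other in markers of several cell types, hepatocytes included.

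Short DNA motifs known from these promoters were searched on both strands of the RefSeq promoter windows (GRCm38.p6), each 300 bases long from 250 bases before to 50 bases after a start site. Of the 33 listed genes, 26 had a window, with 34 windows in all. The NF-Y motif CCAAT lay in windows of 21 of the 26 genes (80.8%), against 41.1% of all 27025 genes with a window and 41.8% of array genes with a mean of at least 5. The Sp1 motif GGGCGG lay in 21 of 26 (80.8%), against 38.2% of all genes and 64.3% of array genes at that level. The E-box CACGTG lay in 6 of 26 (23.1%), against 8.09% and 11.2%. The sterol response element TCACNCCAC lay in 1 of 26 (3.85%), in Hmgcs1, against 1.44% of all genes. The motifs were counted separately, and overlaps between them were not removed. The windows printed show the 1 sterol response element match and a CCAAT match in 6 of the 11 genes that hold one and read lower on every DDC array than on both untreated arrays, picked after their values were seen. Each is 30 bases, 5′ to 3′ on the strand of the gene. Capitals mark the sterol response element in the first line and CCAAT, or ATTGG where it lies on the opposite strand, in the others. In GRCm38.p6 they are chr13:119690204-119690233 (plus strand) and chr13:119690349-119690378 (plus) for Hmgcs1, chr10:76531531-76531560 (plus) for Lss, chr8:64733616-64733645 (minus) for Msmo1, chr9:42264307-42264336 (minus) for Sc5d, chr5:28071184-28071213 (plus) for Insig1, and chr15:82147122-82147151 (plus) for Srebf2. A match is a description of these letters and not a site of binding.
Hmgcs1 sterol response element: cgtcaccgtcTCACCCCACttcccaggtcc
Hmgcs1 CCAAT: ctgagtcccgggATTGGcagaggtagccgc
Lss CCAAT: ggtgatgctctgATTGGccgagctcgcatc
Msmo1 CCAAT: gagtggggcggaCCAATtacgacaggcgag
Sc5d CCAAT: cgccggctgctgATTGGccggctgcctgca
Insig1 CCAAT: cgccctcctcccATTGGctccggcggcctc
Srebf2 CCAAT: cttcgcgcgccgATTGGctaatgcaagcct

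The comparison of untreated YFP+ with YFP- cells asked how the pathway is set in labelled cells before injury. Labelled cells had more transcript of 7 of the 11 sterol genes, which act after farnesyl diphosphate. Fatty acid synthase, the desaturases Scd2, Fads1 and Fads2, and Srebf1 were also higher, while the desaturase Scd1 was lower without passing the threshold. Of the 32 genes, 14 were higher at an adjusted p of at most 0.05 (43.8%) and 0 were lower, where 18.9% of all genes were called, 10.4% higher and 8.46% lower. At an unadjusted p under 0.05 limma gave 23 higher (16.7% of all genes) and 2 lower (14.8%), Ebp and Scd1. By step the called genes were 1 of 6 mevalonate, 7 of 11 sterol, 5 of 9 fatty acid and 1 of 6 SREBP control genes. The median difference was 0.85 over the 32 genes, against -0.01 over all genes, and by step it was 0.48, 1.20, 0.72 and 0.45 in the same order. On 24 of the 32 genes (75.0%) both untreated YFP+ arrays lay above all 3 YFP- arrays, against 22.5% of all genes. Sorted cells were profiled in bulk, so fewer cells of a type and less RNA per cell cannot be told apart. The fit takes 1 spread per gene for all groups, while the median SD of these genes was 0.43 in YFP- against 0.16 to 0.20 in the YFP+ groups, so the errors of this contrast are too small for genes that vary more in YFP-. With only the 5 arrays compared, 6 genes passed. That fit estimates the spread of every gene from fewer arrays, and the share of all genes called in it is not given here. Without untreated YFP+ replicate 2, the median difference of the 32 genes was 0.77.

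**Figure D1:**
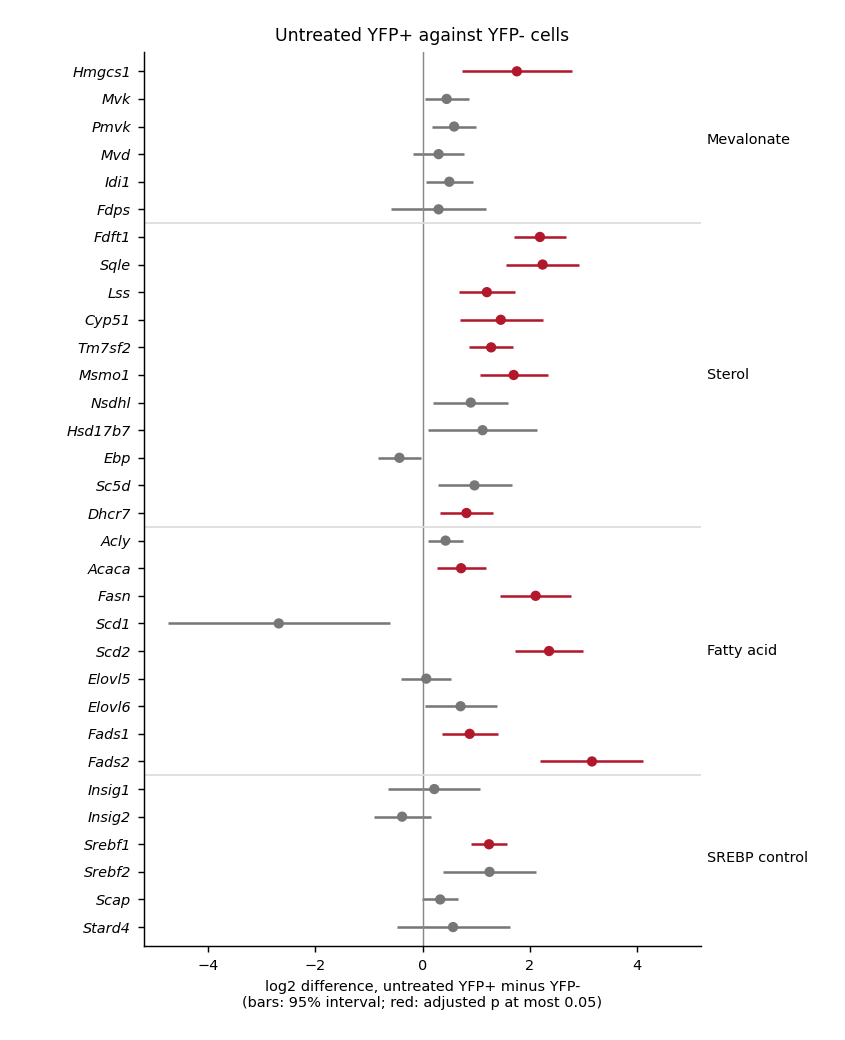
Log2 difference between untreated YFP+ (2 arrays) and YFP- cells (3 arrays) for each of the 32 genes, on the horizontal axis, with genes grouped by pathway step. Points are limma estimates from all 11 arrays, bars are 95% intervals and red marks an adjusted p of at most 0.05: the 14 red genes all lie to the right of 0, while Scd1 lies far to the left at -2.68 with the widest interval.

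Among the mevalonate genes, Hmgcs1 (gene number 208715), the synthase that makes HMG-CoA, read 9.98 and 10.20 on the untreated YFP+ arrays and 8.51, 9.08 and 7.41 on the YFP- arrays. The groups did not overlap, and the difference was 1.76 ± 0.46 (SE; adjusted p = 0.0260, limma). It did not pass without untreated YFP+ replicate 1 or replicate 2, at 1.87 and 1.65. The next 5 enzymes did not pass: the kinases Mvk and Pmvk, the decarboxylase Mvd, the isomerase Idi1 and the farnesyl diphosphate synthase Fdps differed by 0.30 to 0.59. Pmvk was nearest to the threshold at 0.59 ± 0.18 (adjusted p = 0.0502, limma). Its arrays did not overlap, nor did those of Mvk and Idi1, whereas on Mvd and Fdps YFP- replicate 2 read higher than both untreated YFP+ arrays.

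The sterol genes differed most as a step. Fdft1 (gene number 14137), the squalene synthase at the branch point to sterols, read 10.17 and 10.08 on the untreated YFP+ arrays and 7.89, 8.17 and 7.74 on the YFP- arrays. Sqle (gene number 20775), the squalene epoxidase, read 9.81 and 9.98 against 7.96, 7.90 and 7.12. On both genes the groups were far apart, with differences of 2.19 ± 0.22 for Fdft1 (adjusted p = 0.000237, limma) and 2.24 ± 0.30 for Sqle (adjusted p = 0.00106, limma), or 4.56-fold and 4.71-fold. The methylsterol oxidase Msmo1 was higher by 1.70 ± 0.28 (adjusted p = 0.00302, limma) and the sterol reductase Tm7sf2 by 1.28 ± 0.18 (adjusted p = 0.00144, limma). These 4 genes passed under every alternative run for this comparison.

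The lanosterol synthase Lss was higher by 1.20 ± 0.23 (adjusted p = 0.00625, limma), the lanosterol demethylase Cyp51 by 1.46 ± 0.34 (adjusted p = 0.0162, limma) and the reductase Dhcr7, which completes cholesterol, by 0.82 ± 0.22 (adjusted p = 0.0301, limma). Each lost its call without 1 untreated YFP+ array: Lss was at 1.05 without replicate 2, Cyp51 at 1.21 without replicate 1 and Dhcr7 at 0.94 and 0.70 without replicate 1 and 2. Dhcr7 was also lost without YFP- replicate 1 (0.69) or 3 (0.73). Nsdhl, Hsd17b7 and Sc5d, enzymes of the steps between lanosterol and cholesterol, differed by 0.90, 1.12 and 0.97 and did not pass. The sterol isomerase Ebp was the 1 sterol gene with a negative difference. It read 7.86 and 8.25 on the untreated YFP+ arrays and 8.19, 8.75 and 8.51 on the YFP- arrays. The ranges overlapped and the difference of -0.43 ± 0.18 did not pass (adjusted p = 0.129, limma), though it did without YFP- replicate 1 (-0.58, adjusted p = 0.0285, limma).

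In fatty acid synthesis, the largest difference was that of Fads2 (gene number 56473), a desaturase of polyunsaturated fatty acids. It read 11.43 and 11.65 on the untreated YFP+ arrays and 9.30, 8.45 and 7.39 on the YFP- arrays. The groups lay apart by 3.16 ± 0.42 (adjusted p = 0.00104, limma), an 8.94-fold difference. Its partner in the same route, Fads1, read 10.00 and 10.07 against 9.34, 8.90 and 9.21. The difference was smaller, 0.88 ± 0.23 (adjusted p = 0.0273, limma), and it was lost without either untreated YFP+ array (0.92 and 0.85) or without YFP- replicate 2 (0.76), and with array weights (0.88). Fasn, the fatty acid synthase, read 9.60 and 9.38 against 7.27, 7.98 and 6.88, and was higher by 2.11 ± 0.29 (adjusted p = 0.00119, limma). With only the 5 arrays compared, Fads2 and Fasn missed the threshold (adjusted p = 0.0618 and 0.0534, limma). Acaca, the carboxylase that makes malonyl-CoA, was higher by 0.72 ± 0.20 (adjusted p = 0.0353, limma), but by 0.40, 0.70 and 0.66 and not called without untreated YFP+ replicate 2, YFP- replicate 1 or YFP- replicate 2, nor with array weights (0.69). Acly, which supplies acetyl-CoA from citrate, was at 0.43 and did not pass (adjusted p = 0.0661, limma).

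The stearoyl-CoA desaturases Scd1 and Scd2, which make monounsaturated fatty acids, differed in opposite directions. Scd2 (gene number 20250) read 10.28 and 10.38 on the untreated YFP+ arrays and 8.01, 8.55 and 7.36 on the YFP- arrays. It was higher in YFP+ cells by 2.36 ± 0.28 (adjusted p = 0.000565, limma), and passed under every alternative run for this comparison. Scd1 (gene number 20249) read 6.35 and 5.49 against 6.38, 10.09 and 9.33. Both untreated YFP+ arrays lay below all YFP- arrays, but YFP- replicate 1 stood close to them, and the difference of -2.68 ± 0.92 did not pass (adjusted p = 0.0738, limma). Without YFP- replicate 1 it passed at -3.79 ± 0.46 (adjusted p = 0.000414, limma). It also passed with array weights (-2.83, adjusted p = 0.0365, limma) and with only genes of mean at least 5 fitted (-2.68, adjusted p = 0.0471, limma). The 8 hepatocyte markers averaged 7.47, 8.68 and 9.34 on YFP- replicates 1, 2 and 3 and 7.64 and 7.82 on the untreated YFP+ arrays, and their part in the Scd1 level was not tested. The elongases did not pass: Elovl5 read 10.60 and 10.20 against 10.52, 10.58 and 9.89 with overlapping ranges, and Elovl6 read 7.39 and 7.73 against 7.00, 7.20 and 6.35, a difference of 0.71 (adjusted p = 0.139, limma).

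Of the control genes, Srebf1 (gene number 20787), which encodes the SREBP best known for fatty acid genes, read 8.31 and 8.56 on the untreated YFP+ arrays and 7.29, 7.09 and 7.22 on the YFP- arrays. The values were tight on both sides, and the difference was 1.24 ± 0.15 (adjusted p = 0.000595, limma), which passed under every alternative run for this comparison. Srebf2, which encodes the SREBP best known for sterol genes, read 9.90 and 9.89 against 8.38, 9.61 and 7.95. YFP- replicate 2 came close to the YFP+ arrays, and the difference of 1.25 ± 0.38 did not pass (adjusted p = 0.0517, limma). Scap, at 9.18 and 9.08 against 8.86, 8.93 and 8.60, differed by 0.33 and did not pass. The genes of the retention proteins did not pass: Insig1 read 9.47 and 9.23 against 8.56, 9.35 and 9.49, and Insig2 read 7.09 and 6.78 against 7.64, 6.92 and 7.37. Both overlapped between the groups, with differences of 0.22 (95% interval from -0.64 to 1.08) and -0.38 (from -0.91 to 0.16). The sterol carrier Stard4 overlapped too, at 8.06 and 8.54 against 8.36, 7.88 and 6.95.

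With the 3 YFP+ groups averaged, 18 of the 32 genes (56.2%) were higher than in YFP- cells and 1 was lower, where 30.5% of all genes were called, 16.3% higher and 14.3% lower. This contrast uses the same YFP- arrays as the one above and mixes the label with the diets, since no YFP- array is titled with a diet. Pmvk (0.60 ± 0.14, adjusted p = 0.00855, limma), Nsdhl (0.78), Sc5d (0.78) and Srebf2 (1.03 ± 0.29, adjusted p = 0.0242, limma) passed here. The 1 lower gene was Scd1 at -2.54 ± 0.68 (adjusted p = 0.0200, limma). It read 6.20, 7.52 and 6.47 on the CDE arrays and 5.44, 5.74 and 5.37 on the DDC arrays, so CDE replicates 2 and 3 lay above YFP- replicate 1 (6.38). Several of these calls stood close to the threshold. As above, the errors are too small for genes that vary more in YFP-. In YFP- the SD was 0.86 for Srebf2 and 1.96 for Scd1, wider than in any YFP+ group. With array weights, 12 genes were higher and 1 lower, and Acaca, Cyp51, Dhcr7, Fads1, Hmgcs1 and Nsdhl were not called. Of the 11 fits that each left out 1 array, Dhcr7 lost its call in 10, Fads1 in 8, Sc5d in 7, Hmgcs1 in 6, Nsdhl in 5 and Srebf2 in 4. Without YFP- replicate 1, Nsdhl (0.61), Sc5d (0.57), Dhcr7 (0.38) and Srebf2 (0.89) were not called. Without untreated YFP+ replicate 1 these 4 (0.72, 0.77, 0.55 and 1.02), Hmgcs1 (1.17) and Fads1 (0.56) were not. Scd1 was lost without YFP- replicate 2 (-1.80) or 3 (-2.18). Without YFP- replicate 3, Hmgcs1 (0.67), Nsdhl (0.64), Sc5d (0.60), Dhcr7 (0.43), Srebf2 (0.68) and Fads1 (0.58) were not called either, and 13 genes were higher and 1 lower.

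The diet comparisons asked how injury moves the pathway within labelled cells, and used the 8 YFP+ arrays alone. DDC and CDE were set against the same 2 untreated arrays, so their differences are not independent. In DDC the genes read lower than in untreated cells along most of the sterol branch, but 0 of 32 passed the threshold, where 0.160% of all genes (37) did. At an unadjusted p under 0.05, a count chosen after seeing the data, limma gave 15 of 32 lower (46.9%) and 0 higher, against 5.69% of all genes lower and 4.74% higher. On those 15 genes every DDC array lay below both untreated arrays, a pattern that 11.8% of all genes showed. They were 2 of 6 mevalonate, 7 of 11 sterol, 3 of 9 fatty acid and 3 of 6 SREBP control genes. The median difference was -0.36 over the 32 genes and 0.01 over all genes. It was -0.63 for the sterol step, where 11 of 11 genes were negative, -0.30 for fatty acid synthesis, where 9 of 9 were negative, -0.13 for mevalonate and -0.20 for SREBP control. Albumin (Alb) read 11.70 to 11.86 on the DDC arrays and 12.34 to 12.58 on the other YFP+ arrays, while the 8 hepatocyte markers averaged 7.69 to 8.07 on DDC and 7.64 and 7.82 on untreated arrays. Its part in these differences was not tested.

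**Figure D2:**
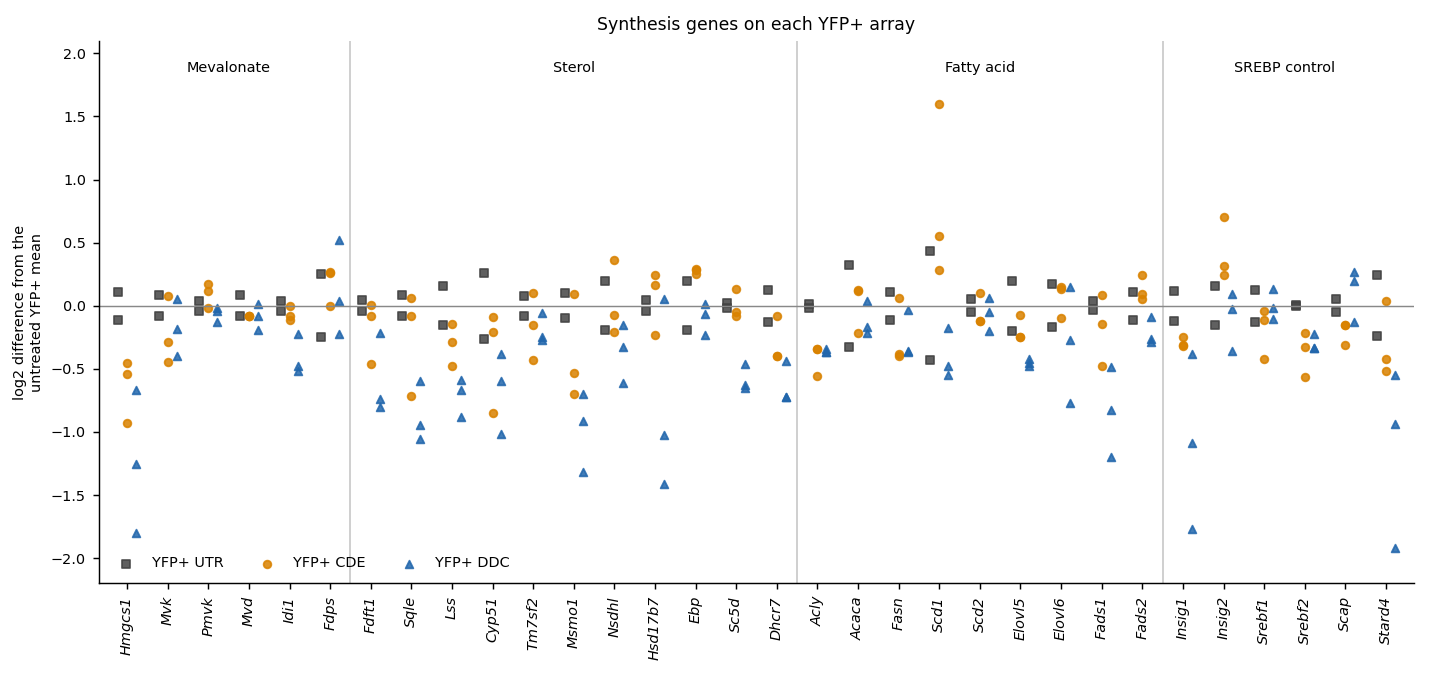
Value of each of the 32 genes on each YFP+ array as a log2 difference from the mean of the 2 untreated arrays (vertical axis), by pathway step, with squares for untreated, circles for CDE and triangles for DDC. The DDC triangles lie below both squares on 15 genes, reach furthest down on Hmgcs1, Insig1 and Stard4, and 1 CDE circle stands high at 1.60 on Scd1.

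The genes with the largest DDC differences were Hmgcs1, Stard4 and Insig1. Hmgcs1 read 8.84, 9.42 and 8.29 on the DDC arrays against 9.98 and 10.20 on the untreated arrays. Every DDC array was lower, replicate 2 least, and the difference was -1.24 ± 0.30 (adjusted p = 0.182, limma), a 2.36-fold lower level with a 95% interval from -1.92 to -0.56. Stard4, which carries sterol between membranes, read 7.36, 7.75 and 6.38 against 8.06 and 8.54, a difference of -1.14 ± 0.37 (adjusted p = 0.333, limma). Insig1, itself a known SREBP target, read 7.58, 8.97 and 8.26 against 9.47 and 9.23. Its DDC arrays were spread widely, with replicate 2 near the untreated level, and the difference was -1.08 ± 0.33 (adjusted p = 0.297, limma). Insig2 read 7.03, 6.91 and 6.58 against 7.09 and 6.78, with overlapping ranges and a difference of -0.10 ± 0.19.

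In the sterol step, Sc5d (gene number 235293), the desaturase that acts late in cholesterol synthesis, came nearest to the threshold. It read 9.20, 9.03 and 9.01 on the DDC arrays against 9.68 and 9.64 on the untreated arrays. Replicates were tight, and the difference was -0.58 ± 0.11 (adjusted p = 0.108, limma). Lss was at -0.71 ± 0.15 (adjusted p = 0.138, limma) and Msmo1 at -0.97 ± 0.25 (adjusted p = 0.222, limma). Sqle read 8.95, 9.30 and 8.84 against 9.81 and 9.98, a difference of -0.86 ± 0.24 (adjusted p = 0.243, limma). Fdft1 (-0.59), Cyp51 (-0.67) and Dhcr7 (-0.63) did not overlap with the untreated arrays either. Hsd17b7 read 5.05, 6.52 and 5.44 against 6.51 and 6.42, so DDC replicate 2 stood with the untreated arrays while replicates 1 and 3 were lower by more than 0.9. Tm7sf2 (-0.19), Ebp (-0.09) and Nsdhl (-0.36) overlapped with them.

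The fatty acid genes differed less in DDC. Fads1 read 8.84, 9.21 and 9.55 on the DDC arrays against 10.00 and 10.07 on the untreated arrays, a difference of -0.84 ± 0.22 (adjusted p = 0.225, limma). All 3 DDC arrays lay below both untreated arrays. Elovl5 read 9.95, 9.98 and 9.92 against 10.60 and 10.20 (-0.45 ± 0.13), and Acly read 9.09, 9.11 and 9.09 against 9.44 and 9.47 (-0.36 ± 0.10). Both were lower on every DDC array, and neither passed after adjustment. Fasn, at 9.13, 9.46 and 9.12 against 9.60 and 9.38, differed by -0.25 with a 95% interval from -0.66 to 0.15. Scd2, at 10.13, 10.39 and 10.28 against 10.28 and 10.38, differed by -0.07 with an interval from -0.34 to 0.21. Elovl6, at 7.71, 7.29 and 6.79 against 7.39 and 7.73, overlapped, as did Acaca.

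The SREBP genes themselves differed by 0.30 or less in size, and did not pass, in DDC. Srebf1 read 8.42, 8.57 and 8.33 on the DDC arrays against 8.31 and 8.56 on the untreated arrays, a difference of 0.00 with a 95% interval from -0.34 to 0.34, and its sign depended on the scaling and on single arrays. Srebf2 read 9.67, 9.56 and 9.56 against 9.90 and 9.89. All DDC arrays were lower, by -0.30 ± 0.12 (adjusted p = 0.447, limma). Scap read 9.0, 9.40 and 9.33 against 9.18 and 9.08, a difference of 0.11. Fdps, of the mevalonate step, read 5.92, 6.40 and 5.66 against 6.13 and 5.63, a difference of 0.12 that was -0.13 without untreated replicate 2 and -0.08 without DDC replicate 2.

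**Figure D3:**
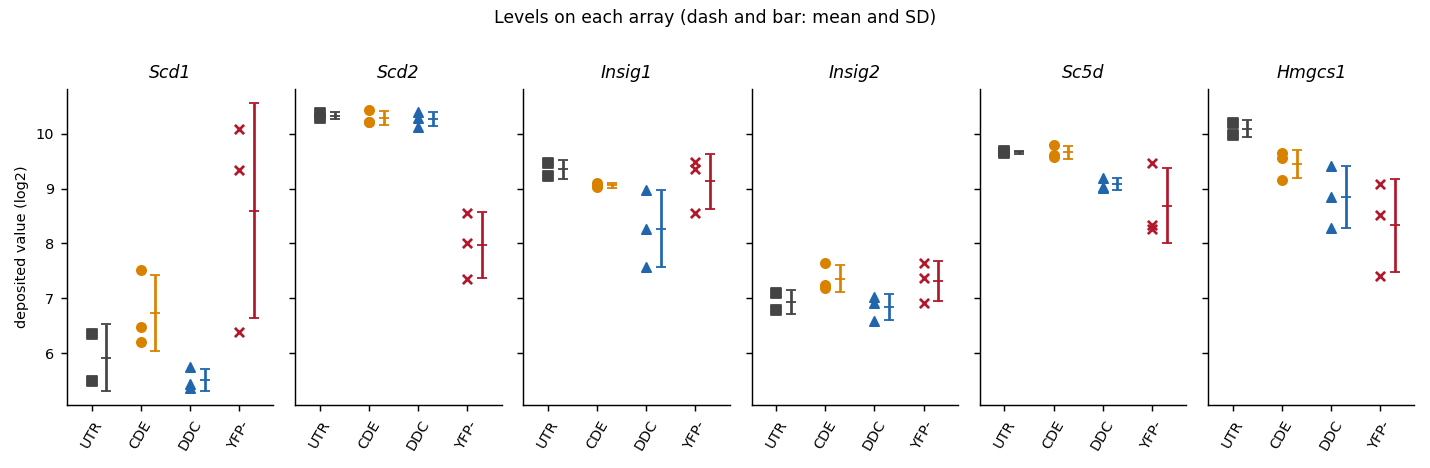
Deposited log2 value (vertical axis) of Scd1, Scd2, Insig1, Insig2, Sc5d and Hmgcs1 on each array, by group (UTR, untreated YFP+, 2 arrays, and CDE, DDC and YFP-, 3 arrays each), with the group mean and SD beside the points. Scd2 is level across the YFP+ groups and low in YFP-, Scd1 is widest in YFP- (SD 1.96), and the 3 DDC points of Sc5d lie below all untreated and CDE points.

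In CDE 0 of 32 genes passed, and 0% of all genes did. At an unadjusted p under 0.05 limma gave 2 lower (6.25%, against 2.86% of all genes) and 0 higher (3.58%). It gave 4 lower (12.5%) without CDE replicate 1, against 2.09% of all genes, or without CDE replicate 3, against 2.67%, and 1 lower (3.12%, against 1.14%) with all 11 arrays in 1 fit. The 2 were Acly and Srebf2. Acly read 9.11, 8.90 and 9.11 on the CDE arrays against 9.44 and 9.47 on the untreated arrays (-0.42 ± 0.10, adjusted p = 0.578, limma). Srebf2 read 9.57, 9.33 and 9.68 against 9.90 and 9.89 (-0.37 ± 0.12, adjusted p = 0.692, limma). On 5 genes every CDE array lay below both untreated arrays (15.6%, against 10.5% of all genes): these 2, Hmgcs1, Insig1 and Scap. The largest negative difference was that of Hmgcs1, which read 9.64, 9.16 and 9.55 against 9.98 and 10.20 (-0.64 ± 0.30, adjusted p = 0.795, limma). Insig1, at 9.03, 9.04 and 9.10, was tight, and was at -0.30 from the untreated mean, as Scap, at 8.82, 8.98 and 8.98, was at -0.20.

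On 2 genes every CDE array lay above both untreated arrays (6.25%, against 11.5% of all genes). Insig2 read 7.25, 7.18 and 7.64 against 7.09 and 6.78, a difference of 0.42 ± 0.19, and Ebp read 8.34, 8.31 and 8.35 against 7.86 and 8.25, a difference of 0.28. Neither passed. Scd1 had the largest positive difference, 0.81 ± 0.39 (adjusted p = 0.808, limma), and it came mainly from replicate 2 at 7.52. The median difference in CDE was -0.18 over the 32 genes, against 0.00 over all genes, and -0.06 without CDE replicate 2. By array, the sterol step stood at 0.07, -0.40 and -0.08 from the untreated mean on CDE replicates 1, 2 and 3, so replicate 2 was the low array. That array also had the highest hepatocyte marker mean, 9.16, against 7.92 and 7.88 on the other CDE arrays, and the part of that in its levels was not tested. Cyp51, for example, read 8.42, 7.66 and 8.30 on the CDE arrays, and Msmo1 read 9.71, 8.92 and 9.09.

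**Figure D4:**
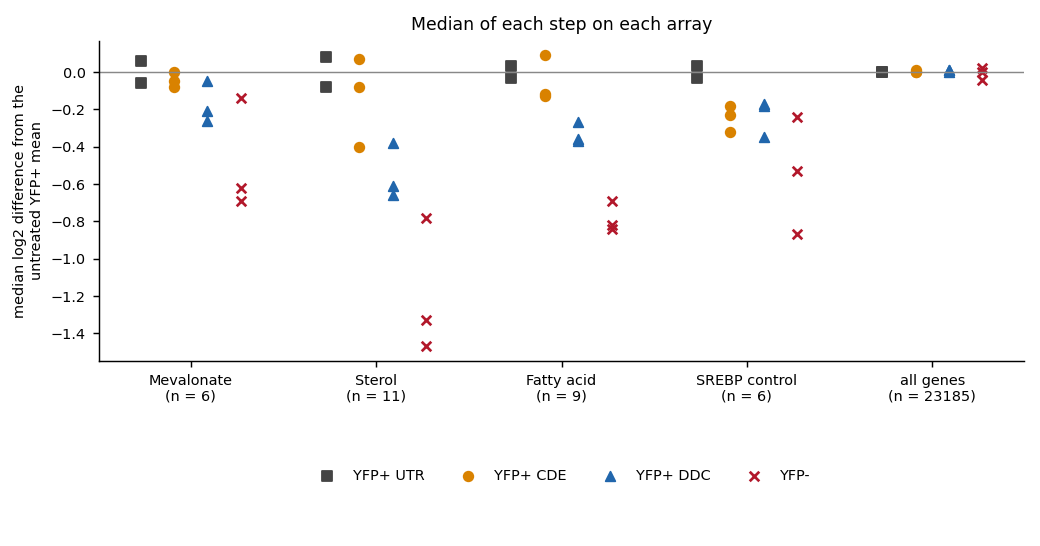
Median over the genes of each step, on each array, of the log2 difference from the untreated YFP+ mean (vertical axis), with all 23185 genes at the right, and symbols by group. Sterol genes stand at -0.61, -0.38 and -0.66 on the DDC arrays and at -1.47, -0.78 and -1.33 on the YFP- arrays, while the median of all genes stays near 0 on every array.

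DDC was then compared with CDE directly, to ask whether the injuries differ. Of the 32 genes 1 passed and was lower in DDC, where 1.16% of all genes were called and 0.742% were lower. This was Sc5d, at 9.20, 9.03 and 9.01 on the DDC arrays and 9.58, 9.61 and 9.79 on the CDE arrays. The groups did not overlap, and the difference was -0.58 ± 0.10 (adjusted p = 0.0404, limma), or 1.49-fold. The call stood close to the threshold and was lost without any 1 of the 6 arrays (adjusted p = 0.0575 to 0.144, limma), after quantile normalization (0.0763) or median centring (0.0523), and with all 11 arrays in 1 fit (0.699). The sizes in these alternatives ran from -0.63 to -0.49.

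At an unadjusted p under 0.05, limma gave 14 of 32 genes lower in DDC than in CDE (43.8%, against 8.81% of all genes) and 1 higher, Scap (3.12%, against 6.52%). The count was 8 without CDE replicate 1 (against 6.97% of all genes) or CDE replicate 3 (against 6.82%). It was 9 without DDC replicate 3 (against 8.67%), and 6 with all 11 arrays in 1 fit (18.8%, against 4.82%). Of the 14, 7 were sterol genes. The median difference was -0.34 over the 32 genes and -0.40 over the 11 sterol genes, all of which were negative, against 0.01 over all genes. A negative median was not particular to the synthesis genes, as 9 measured genes of fatty acid oxidation had a median of -0.36 in this comparison. On 13 genes (40.6%, against 10.6% of all genes) every DDC array lay below every CDE array.

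The largest difference between the diets was that of Scd1, which read 5.44, 5.74 and 5.37 on the DDC arrays and 6.20, 7.52 and 6.47 on the CDE arrays. The groups did not overlap, and the difference was -1.21 ± 0.35 (adjusted p = 0.156, limma). Hsd17b7, at 5.05, 6.52 and 5.44 against 6.71, 6.23 and 6.63, was at -0.85 ± 0.33 and overlapped through DDC replicate 2. Stard4, at 7.36, 7.75 and 6.38 against 8.34, 7.78 and 7.88, was at -0.84 ± 0.33 with DDC replicate 2 just under the lowest CDE array. Insig1 was at -0.79 ± 0.30 and Insig2 at -0.52 ± 0.17, and both had all DDC arrays below all CDE arrays. Of the polyunsaturated desaturases, Fads1 read 8.84, 9.21 and 9.55 on DDC and 9.89, 9.56 and 10.12 on CDE (-0.66 ± 0.20), and Fads2 read 11.25, 11.28 and 11.45 on DDC and 11.59, 11.63 and 11.78 on CDE (-0.34 ± 0.11). Neither passed after adjustment (adjusted p = 0.169 and 0.178, limma).

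Other genes were higher in DDC or differed little. Scap was higher on every DDC array, at 9.0, 9.40 and 9.33 against 8.82, 8.98 and 8.98 (0.32 ± 0.12, adjusted p = 0.267, limma). Srebf1 (0.20), Srebf2 (0.07), Acly (0.06) and Mvk (0.04) had differences above 0 within overlapping ranges. Fasn was at -0.01 with a 95% interval from -0.38 to 0.35 and Scd2 at -0.02 with an interval from -0.26 to 0.23.

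**Figure D5:**
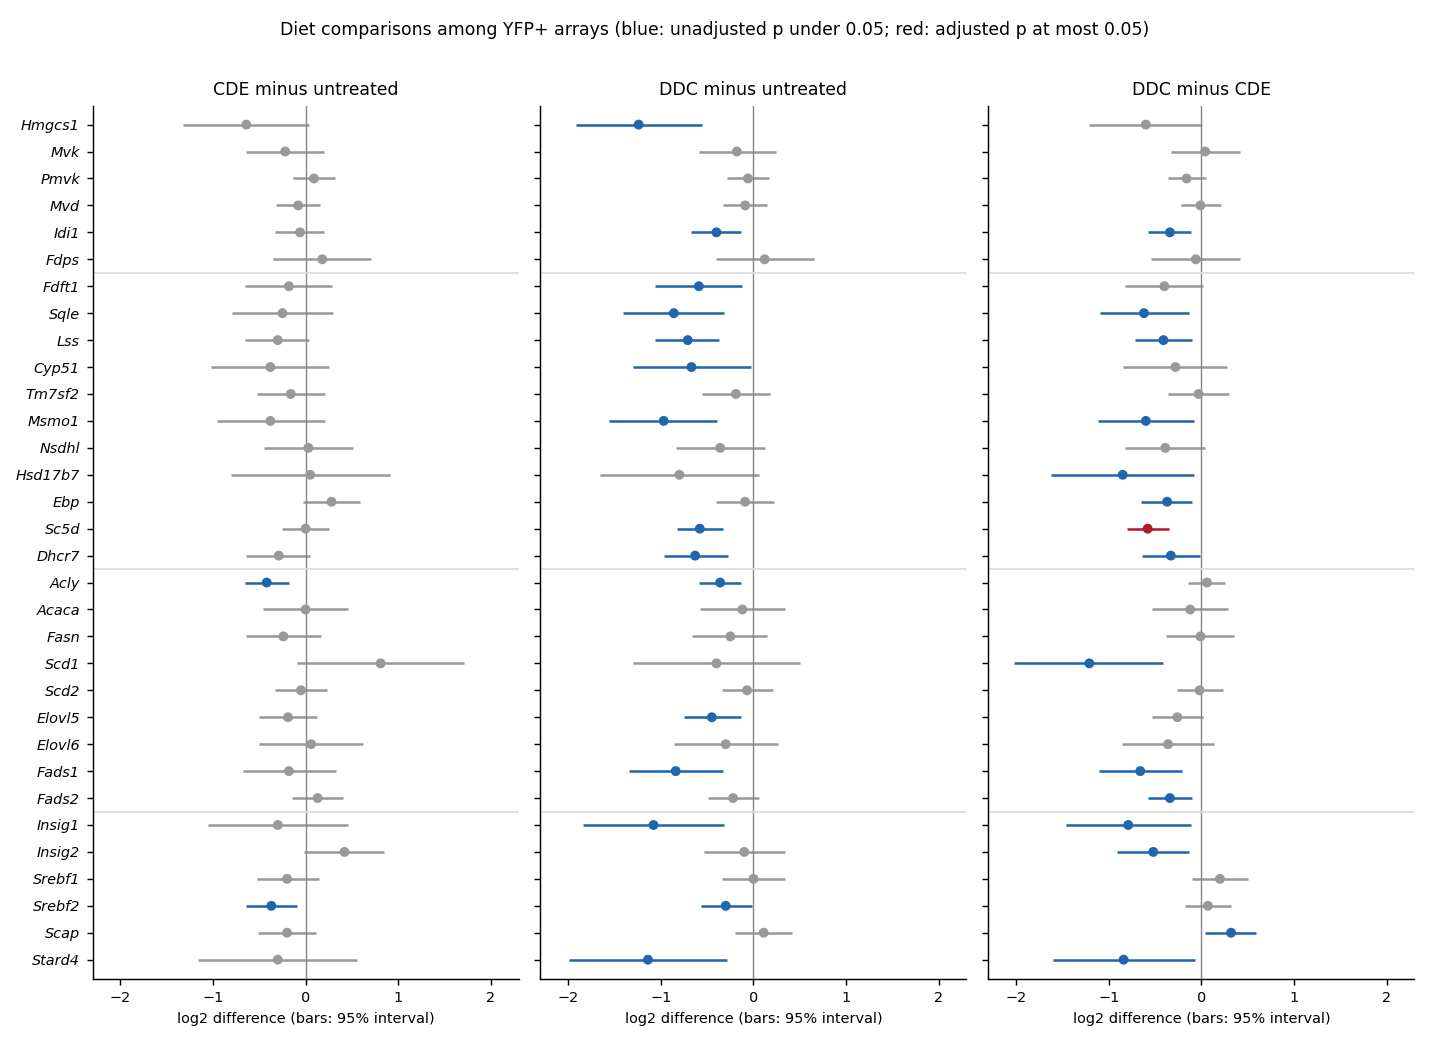
Log2 differences (horizontal axes) for the 32 genes in CDE minus untreated, DDC minus untreated and DDC minus CDE, from the 8 YFP+ arrays, in pathway order from mevalonate (top) through sterol and fatty acid genes to SREBP control. Points are limma estimates, bars are 95% intervals, blue marks an unadjusted p under 0.05 and red an adjusted p of at most 0.05: 2, 15 and 14 genes are lower past the unadjusted level in the 3 panels, and only Sc5d is red.

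Across the 3 YFP+ groups, DDC had the lowest mean on 26 of the 32 genes (81.2%, against 33.5% of all genes) and on 11 of 11 sterol genes, 8 of 9 fatty acid, 4 of 6 mevalonate and 3 of 6 control genes. The order DDC, CDE, untreated from low to high held on 17 of 32 (53.1%, against 15.2% of all genes). The lowest single YFP+ array was a DDC array on 23 of 32 genes (71.9%, against 40.5%), DDC replicate 3 on 11 and replicate 1 on 8. Untreated arrays were highest on 18 of 32 (56.2%, against 22.1%). Members of 1 step did not all share an order of means: Scd1 and Hsd17b7 were highest in CDE, while Hmgcs1, Sqle and Msmo1 were highest in untreated cells. CDE exceeded untreated by 0.05 ± 0.37 on Hsd17b7 and 0.81 ± 0.39 on Scd1, with overlapping arrays, and neither passed.

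Genes around the pathway were described from lists of related lipid genes, 57 of 64 measured. In untreated YFP+ against YFP- cells 21 were higher (36.8%, against 10.4% of all genes) and 8 lower (14.0%, against 8.46%). Among 13 genes of substrate supply and further fatty acid synthesis, 8 were higher and 1 lower. These included the elongase Elovl7 (3.97 ± 0.64, adjusted p = 0.00259, limma), the malic enzyme Me1 (3.21 ± 0.39, adjusted p = 0.000645, limma), which supplies NADPH, and the carbohydrate response factor Mlxipl (2.66 ± 0.23, adjusted p = 0.000125, limma). Thrsp, a lipogenic protein of hepatocytes, was the lower one (-2.08 ± 0.30, adjusted p = 0.00155, limma). Among 7 measured genes that process or restrain SREBP, the protease Mbtps1 (0.69) and Erlin2 (0.60) were higher and Ufd1 was lower (-0.74). Of 6 measured genes of the isoprenoid branch, which leaves the mevalonate route at farnesyl diphosphate, Pdss2 was higher (0.64) and Ggps1 lower (-0.80). In each of the 3 diet comparisons 0 of the 57 genes passed, where 0% (CDE), 0.160% (DDC) and 1.16% (DDC against CDE) of all genes did, so these counts do not set the 57 apart. The lowest adjusted p-values were 0.353 in CDE, 0.127 in DDC and 0.0649 between them (limma). In DDC against CDE the median difference of the 57 was -0.16. By list it ran from -0.36 for fatty acid oxidation to 0.12 for substrate supply and further fatty acid synthesis.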

How the data were processed

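Gene expression was measured on Affymetrix MoGeneST 2.0 arrays (version per the submitters' processing notes) in 11 samples. The values used are log2 values deposited by the authors, 1 per feature and array. Base 2 was inferred from their range (2.55 to 13.57), and the sources used here state neither normalization nor probe summary. The platform annotation paired 23185 of 25206 features with 1 gene symbol and 0 with several, and 2021 it did not list stay unnamed. All 32 measured members matched RefSeq (GRCm38.p6) by gene number.

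Groups came from the sample titles. The models were linear, with 1 mean per group (limma 3.58.1, lmFit and eBayes, in R 4.3.3), and no further normalization was done. All 11 arrays (7 residual degrees of freedom) entered the comparisons with YFP-, and the 8 YFP+ arrays (5) the diet comparisons. Tests were two-sided, adjusted by Benjamini-Hochberg over 23185 genes, with a threshold of 0.05. Errors are SE for differences and SD for means, and precision is limited by the number of arrays. Both fits were tested on simulated data with the same spread in every group, which does not cover the wider spread seen in YFP-.

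Members and lists were chosen with earlier results of these data known, so no p is given over the members. Any member may be named, with values per array for those called among YFP+ groups, the 3 largest differences each way in each comparison and the paralog pairs. From other lipid lists up to 4 called genes are named. Alternatives were quantile normalization, median centring, a mean of at least 5, a variance trend with robust fitting, array weights, a replicate block, all features, other sets of arrays and leaving out each array. The replicate numbers were not taken to pair the samples: over all genes 1 of 15 same-numbered pairs had deviations correlated over 0.1, and over the 32 members 7 of 15, with the others down to -0.53.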

Additional observations from a re-analysis of the deposited data

Results flagged for a closer look

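Sc5d differed between the diets, with DDC below CDE by -0.58 (log2, adjusted p = 0.0404, limma), although this call was lost in the alternatives given for it above.

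On 2 of the 32 genes (6.25%, against 5.26% of all genes) every CDE array lay above the untreated mean and every DDC array below it. Both diets were set against the same untreated arrays, and the opposition itself was not tested. The share is close to that of all genes, and on both genes each diet overlapped the untreated arrays. For Scd1 the CDE arrays stood at 0.28, 1.60 and 0.55 and the DDC arrays at -0.48, -0.18 and -0.55, with DDC minus CDE at -1.21. For Fads2 the CDE arrays stood at 0.05, 0.09 and 0.24 and the DDC arrays at -0.29, -0.27 and -0.09, with DDC minus CDE at -0.34. Groups of 2 or 3 arrays are too small to single out a stray array.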

How the results depend on the processing

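Untreated YFP+ against YFP- called 14 of the 32 genes, 6 with only the 5 arrays compared and 9 to 18 with 1 array left out (median difference 0.77 to 0.96). The mean of the YFP+ groups against YFP- called 19, 13 with array weights, and 13 to 22 with 1 array left out (0.57 to 0.81). Shares of all genes called in these alternatives are not given for either comparison. DDC against CDE called 1, and 0 after quantile normalization, after median centring, with all 11 arrays in 1 fit, and without any 1 array (0 to 0; -0.39 to -0.3). CDE and DDC against untreated cells called 0 in every alternative run (leave-one-out medians -0.19 to -0.06 and -0.4 to -0.34). With the replicate block the counts were 12 for untreated YFP+ against YFP-, 17 for the YFP+ mean, and 0 for the 3 diet comparisons. Among named genes it left uncalled Acaca (adjusted p = 0.0694, limma) and Cyp51 (0.0515) in the first, Nsdhl (0.0628) and Sc5d (0.0521) in the second, and Sc5d between the diets (0.102). The sign changed for differences near 0. Srebf1 in DDC against untreated was -0.02 after median centring, -0.01 with the replicate block, -0.06 without DDC replicate 2, and ran from -0.12 to 0.12 with 1 array left out. Fdps there was -0.08 without DDC replicate 2 and ran from -0.13 to 0.37, and Srebf2 in DDC against CDE ran from -0.03 without CDE replicate 2 to 0.15. The cause of these changes was not tested. Where 1 untreated array was left out, the lone array was assumed to vary like the other groups. The unadjusted DDC count of 15 (46.9%, against 5.69% of all genes) ran from 10 to 15 over the alternatives. The 10 came with all 11 arrays in 1 fit (31.2%, against 2.54% of all genes).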

Other observations

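Genes that take up, export, store and burn lipid were also measured in untreated YFP+ and YFP- cells, a comparison in which 10.4% of all genes were higher and 8.46% lower. The lists are of 7 to 9 genes, and their counts are given as descriptions. Of 7 measured genes of the oxysterol-responsive LXR route and sterol efflux, 2 were lower in YFP+ cells, the exporter Abcg1 (-3.03 ± 0.21, adjusted p = 4.87e-05, limma) and Mylip, which degrades lipoprotein receptors (-3.27 ± 0.36, adjusted p = 0.000399, limma), and Lpcat3 was higher (0.74). Of 8 genes of uptake and transport, the receptor Vldlr was higher (1.59) and the lysosomal lipase Lipa (-2.47), the lipoprotein receptor Scarb1 (-1.42) and Npc2 (-0.84) were lower. The macrophage and endothelial marker means were also higher on the YFP- arrays than on the YFP+ arrays, and their part in these differences was not tested. Of 7 storage genes, the acyltransferases Gpam (2.08), Dgat2 (1.80) and Agpat2 (1.79) were higher and 0 lower. Of 9 genes of fatty acid oxidation, 5 were higher, among them Acadm (1.14), and 0 lower.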
